A study of Mus musculus with 9 samples.

Results

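The 10 genes described here encode the cofilin pathway and its partners in actin filament turnover: the cofilins Cfl1, Cfl2 and Dstn, the LIM kinases Limk1 and Limk2, the slingshot phosphatases Ssh1 and Ssh2, and the cofactors Cap1, Wdr1 and Pfn1. They were taken by symbol from the array's annotation, and all 10 were found among 30142 genes measured, each on 1 probeset that carried that symbol alone. The set was chosen by a measured value: Cfl1 stood at rank 11 of 30142 genes by unadjusted p in the comparison of knockout with wild type. The knockout against wild-type values of these genes are therefore given as a description, with no test.

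Gene expression was measured in LSK cells, the bone marrow fraction without lineage markers and with Sca-1 and c-Kit that holds haematopoietic stem cells and early progenitors. The 4 knockout (KO) mice had the genotype Abi1(-/-);Tg (Mx1-cre(+)) and the 5 wild-type (WT) mice Abi1(fl/fl);Tg (Mx1-cre(-)), so WT mice also carried floxed Abi1 alleles. Mice of both genotypes were given poly(I:C) in 3 injections at 8 to 9 weeks of age, and their marrow was taken at 12 to 14 weeks. The Mx1 promoter answers to interferon, so recombination is not limited to LSK cells, and Cre was present in KO mice only, so the deletion and Cre itself cannot be told apart. Each array held RNA of 1 mouse, amplified from 5 ng. Abi1 is a subunit of the WAVE complex, an activator of branched actin assembly, and the comparison asks what changes in the transcripts of these progenitors when it is lost.

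Actin filaments grow at one end and are taken apart at the other. Cofilin binds the older part of a filament, severs it and speeds the loss of subunits, and it is switched off when LIM kinases phosphorylate it near its amino terminus and switched on again when slingshot phosphatases remove that phosphate. Cap1 and Wdr1 help cofilin take filaments apart, and profilin recharges the released monomers for new growth. In blood cells this cycle supports migration, division and the shape changes of maturing cells. Its main control lies in protein phosphorylation, which an array of transcripts does not measure.

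The sequences before the RefSeq starts of the 3 cofilin family genes are shown because these paralogues differed in how their signals behaved across the arrays. Each is the 250 bases before the start in the RefSeq annotation of GRCm38.p6, written 5′ to 3′ on the gene's strand. Capitals mark a CCAAT box (CCAAT or ATTGG) or a GC box (GGGCGG or CCGCCC), counting both strands.

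Cfl1 (chr19:5490205-5490454, plus strand): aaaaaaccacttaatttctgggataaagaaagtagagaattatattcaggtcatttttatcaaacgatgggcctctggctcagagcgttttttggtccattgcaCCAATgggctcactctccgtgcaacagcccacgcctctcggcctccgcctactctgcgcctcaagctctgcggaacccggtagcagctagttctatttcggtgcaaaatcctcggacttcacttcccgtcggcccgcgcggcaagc

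Cfl2 (chr12:54862878-54863127, minus strand): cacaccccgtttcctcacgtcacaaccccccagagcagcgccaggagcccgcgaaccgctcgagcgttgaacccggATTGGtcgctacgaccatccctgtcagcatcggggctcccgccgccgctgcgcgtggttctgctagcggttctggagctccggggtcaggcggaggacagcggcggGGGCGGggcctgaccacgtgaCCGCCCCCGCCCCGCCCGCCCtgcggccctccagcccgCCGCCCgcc

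Dstn (chr2:143915081-143915330, plus strand): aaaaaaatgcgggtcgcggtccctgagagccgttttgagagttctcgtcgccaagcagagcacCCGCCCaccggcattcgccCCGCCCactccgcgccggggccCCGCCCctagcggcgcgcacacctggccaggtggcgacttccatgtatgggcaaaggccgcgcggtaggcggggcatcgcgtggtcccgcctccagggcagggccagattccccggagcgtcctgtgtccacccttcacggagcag

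The Cfl1 window held 1 CCAAT box, starting 146 bases before the start, and 0 GC boxes. The Cfl2 window held 1 CCAAT box and 6 GC boxes, of which 2 pairs overlap, and the Dstn window held 0 CCAAT boxes and 3 GC boxes. A GC box occurred in 32.7% and a CCAAT box in 33.8% of all 32851 windows of this length. Of the 14 windows of the 10 genes, 10 held a GC box and 5 a CCAAT box. The TATA box (TATAAA or TTTATA) was in 0 of the 14 windows and in 12.4% of all windows. The CArG box, the site of serum response factor, was also in 0 of the 14 and in 1.47% of all. These matches describe letters in a fixed window and show no binding.

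All values are log2 signals as deposited, read as log2 from their range of 1.84 to 19.45. The labels were first checked against the targeted gene: Abi1 was 5.59 to 6.11 in the KO arrays and 11.49 to 11.65 in the WT arrays. Here a gene counted as above background when its mean over the 9 arrays exceeded the mean background level of the arrays. All 10 measured markers of stem and early progenitor cells, Kit and Cd34 among them, lay above background, as did Mpo and the other 9 markers of granulocyte-monocyte progenitors. Of the latter, Gfi1 and Cebpe were below it in some arrays, such as Cebpe at 4.98 in WT replicate 5, where background was 5.29. Of the markers of mature lymphocytes and their precursors, 3 of 9 for T and NK cells and 5 of 9 for B cells lay above background; Cd3d, Cd3e, Cd4, Cd8a, Pax5 and Ms4a1 were among those that did not. The arrays that resembled the rest least were KO replicate 1 and WT replicate 5: over genes above background, the median correlation with the remaining arrays was 0.973 for KO replicate 1 and 0.979 for WT replicate 5, and at least 0.987 for each of the other 7. For each of the 10 genes whose difference rests on these arrays, values are given with and without them. The design text of the series names individual mice, and the number of arrays limits the precision.

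All 10 genes were expressed above background in LSK cells. The background level was percentile 95 of the receptor genes of smell and pheromone sensing. It was 5.64 in KO replicate 1 and ran from 5.29 to 5.37 across the other arrays. Each of the 10 genes exceeded it in all 9 arrays, by 1.38 to 9.88. Signals of different probesets carry their own probe affinities, so these levels give no order of abundance among the genes. What can be compared is how each gene moved from array to array. Dstn moved most, over a range of 1.19, followed by Wdr1 (0.91) and Ssh1 (0.88). Pfn1 covered 0.27 and Limk2 0.09.

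Cfl1, the main cofilin of cells outside muscle, had higher signals in every KO array than in any WT array. It was 15.40, 15.10, 15.09 and 15.20 in KO replicates 1 to 4, and 14.85, 14.83, 14.81, 14.86 and 14.92 in WT replicates 1 to 5. The groups did not overlap and were 0.17 apart at their nearest arrays, KO replicate 3 and WT replicate 5. The KO mean was 15.20 ± 0.14 (SD, n = 4) and the WT mean 14.85 ± 0.042 (SD, n = 5), a difference of 0.34 (SE 0.066), or 1.27-fold on a log2 reading. The WT arrays lay close together, since 6.26% of the 16023 genes above background had a smaller SD among them. KO replicate 1 was the highest array, at 15.40 against 15.20 in the next, KO replicate 4. Without KO replicate 1 the KO mean was 15.13 and the difference 0.28, and without WT replicate 5 too the difference was 0.29 (SE 0.032). Quantile normalization gave 0.28.

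Cfl2, the cofilin of muscle, did not separate the groups. Its signals were 9.25, 8.84, 9.16 and 9.05 in KO replicates 1 to 4 and 9.23, 9.00, 9.03, 8.74 and 8.88 in WT replicates 1 to 5. The highest and the lowest values of both groups lay close together, and 3 of the 4 KO arrays fell inside the WT range. Means were 9.07 ± 0.18 (SD, n = 4) and 8.98 ± 0.18 (SD, n = 5), a difference of 0.10 (SE 0.11), and 0.017 without KO replicate 1 and WT replicate 5.

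Dstn encodes destrin, or actin depolymerizing factor, the third member of the family. Its signals were 11.80, 11.62, 11.81 and 11.64 in KO replicates 1 to 4 and 11.46, 11.79, 11.90, 10.99 and 10.71 in WT replicates 1 to 5. The KO arrays lay within a narrow band that fell wholly inside the WT range, while WT replicates 4 and 5 were low. Means were 11.72 ± 0.10 (SD, n = 4) and 11.37 ± 0.51 (SD, n = 5). The difference of 0.35 (SE 0.24) was about as large as that of Cfl1, but it was 0.18 without WT replicate 5 and 0.15 without KO replicate 1 as well. The 2 low arrays also had low summed signals of erythroid and megakaryocyte markers. The summed signal of 7 measured erythroid markers, all above background, was 15.77 in WT replicate 4 and 11.83 in WT replicate 5 on the log2 scale, against 16.77 to 17.12 in the other WT arrays. That of 9 megakaryocyte markers, 8 of them above background, was 14.66 and 11.59, against 15.17 to 15.99. In WT replicate 4, Car1 (15.64) made up nearly all of the erythroid sum and Pf4 (14.33) most of the megakaryocyte sum. Pf4, Gp9 and Treml1 were lower there than in WT replicates 1 to 3, and the other measured megakaryocyte markers were not. KO replicate 1 had a summed erythroid signal of 15.52, below that of WT replicate 4, and a Dstn signal of 11.80. The part of these cells in the Dstn values was not tested, and in bulk samples fewer cells of a type and less RNA per cell cannot be told apart.

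**Figure D1:**
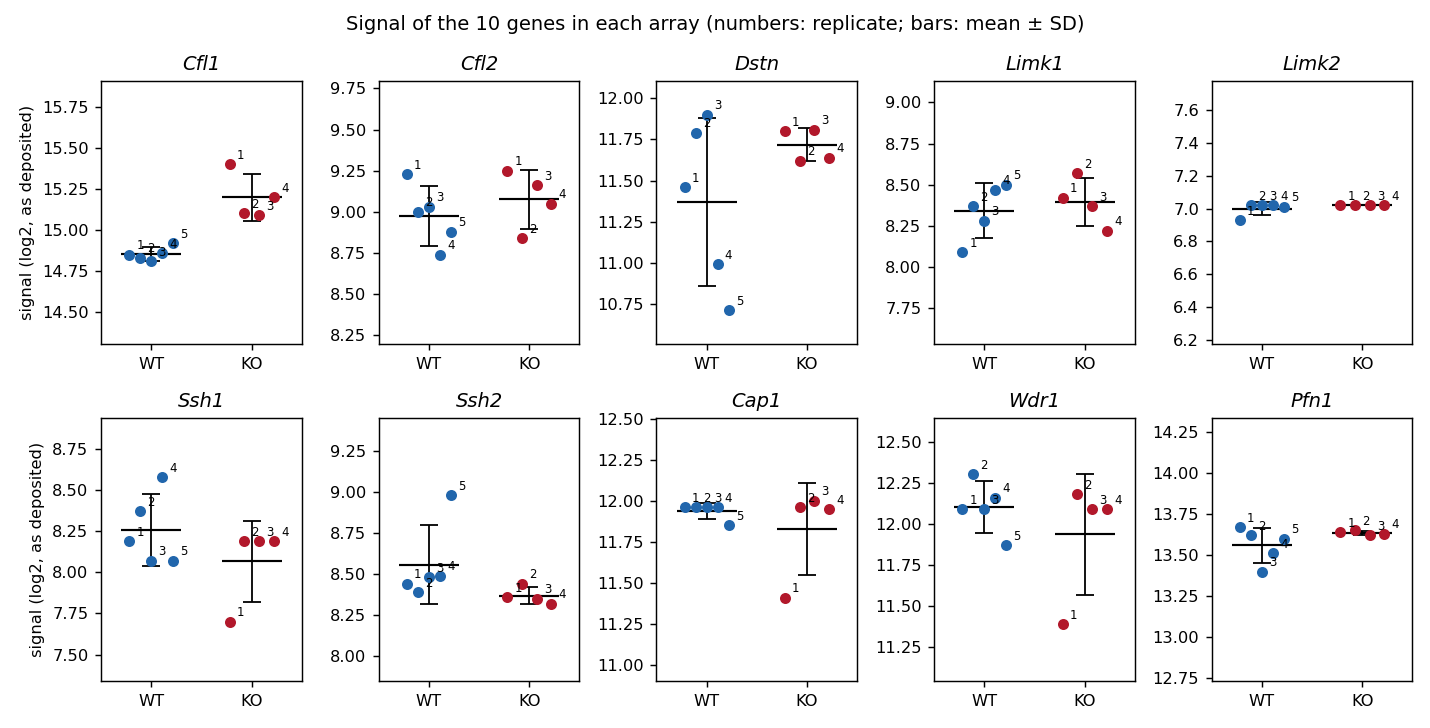
Log2 signal of each of the 10 genes (vertical axis, as deposited) in the 5 WT arrays (blue) and the 4 KO arrays (red), 1 point per mouse numbered by replicate, with black lines at the group mean ± SD and every panel spanning the same number of log2 units. The Cfl1 points of KO, 15.09 to 15.40, lie above all WT points, 14.81 to 14.92, while the groups of the other 9 genes overlap.

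Marker levels of other cell types were set beside Cfl1. The summed signal of 12 neutrophil markers, 7 of them above background and Ly6g not, reached 13.77 in KO replicate 1 and 12.76 in KO replicate 2. The remaining KO arrays, at 10.03 and 10.34, lay within the WT range of 9.69 to 10.91. Cfl1 was 15.10 in KO replicate 2 and 15.09 in KO replicate 3, and the neutrophil sums of these arrays were 12.76 and 10.03. The summed signal of 9 B cell markers, 5 of them above background, was 9.36 to 9.65 in KO and 8.98 to 9.23 in WT, without overlap. Of these 9, 4 did not overlap singly, with KO higher, against 0.68% of all genes. They were Cd79b, Vpreb1, Igll1 and Vpreb3, of which Igll1 and Vpreb3 had means below background. Among the 12 neutrophil markers this held for 1, Mmp8, whose mean also lay below background. The summed signal of 9 T and NK cell markers was 14.45 to 14.60 in KO and 13.77 to 14.29 in WT, also without overlap. Nkg7, a cytotoxic granule gene, was 14.43 to 14.58 in KO and 13.74 to 14.27 in WT and made up nearly all of this sum, and it was the only 1 of the 9 whose groups did not overlap. The part of these cells in the Cfl1 values was not tested. Sums of mast cell and basophil markers overlapped (14.23 to 14.62 in KO, 13.27 to 14.95 in WT). All 9 of these markers had a higher KO mean, against 64.2% of all genes and 54.4% of those above background. Of the 9, 8 lay above background. The groups did not overlap for 3, with KO higher, against 0.68% of all genes and 0.936% of those above background. Fcer1a, a chain of the IgE receptor, was 7.51 to 8.36 in KO and 5.68 to 7.26 in WT, the chymase gene Cma1 6.66 to 6.86 and 5.49 to 6.25, and the tryptase gene Tpsb2 6.28 to 6.81 and 5.30 to 6.22. Their part in the Cfl1 values was not tested either. Sums overlapped for the markers of macrophages and of granulocyte-monocyte progenitors. KO means were higher in 6 of 11 and 9 of 10 of these, against 64.2% of all genes. They were also higher in 11 of 12 neutrophil, 9 of 9 megakaryocyte and 9 of 9 B cell markers. Erythroid markers gave 5 of 7 and T and NK cell markers 6 of 9. Of 10 stem and early progenitor markers, 2 had a higher KO mean. The sum of all 10 was 16.10 to 16.49 in KO, lowest in KO replicate 1, and 16.41 to 16.79 in WT. Whether these levels have a part in the Cfl1 values was not tested.

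The LIM kinases, which inactivate cofilin, did not separate the groups. Limk1 was 8.42, 8.57, 8.37 and 8.22 in KO replicates 1 to 4 and 8.09, 8.37, 8.28, 8.47 and 8.50 in WT replicates 1 to 5. The groups overlapped from 8.22 to 8.50. Their difference of 0.053 (SE 0.10) changed sign when KO replicate 2 or WT replicate 1 was left out. Limk2 was 7.02 in all 4 KO arrays and in WT replicates 2, 3 and 4, with 6.93 and 7.01 in WT replicates 1 and 5. This one value in 7 of 9 arrays was equal to 2 decimals, as were the values of 13.2% of genes above background in at least 5 arrays, and it makes the spread of Limk2 small. Its difference was 0.020 (SE 0.032), and -0.027 when arrays were centred on their medians.

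The slingshot phosphatases, which reactivate cofilin, both had lower means in KO, and both differences rested in part on 1 array. Ssh1 was 7.70 in KO replicate 1 and 8.19 in the other 3 KO arrays, against 8.19, 8.37, 8.07, 8.58 and 8.07 in WT replicates 1 to 5. With all arrays it differed by -0.19 (SE 0.14), and by -0.066 without KO replicate 1. Ssh2 was 8.36, 8.44, 8.35 and 8.32 in KO and 8.44, 8.39, 8.48, 8.49 and 8.98 in WT. In this gene the high array was WT replicate 5, and 3 of the 4 KO arrays lay below the lowest WT array, while KO replicate 2 did not. The Ssh2 difference was -0.19 (SE 0.12) with all arrays and -0.083 without WT replicate 5, so it stayed below 0.

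Cap1 and Wdr1, which work with cofilin in taking filaments apart, had lower KO means, and both had their lowest signal in KO replicate 1. Cap1, a cyclase-associated protein that also frees cofilin from actin monomers, was 11.41 in that array, 11.96, 12.00 and 11.95 in the other KO arrays, 11.96 in WT replicates 1 to 4 and 11.85 in WT replicate 5. Its difference was -0.11 (SE 0.12) with all arrays, 0.032 without KO replicate 1 and 0.01 without WT replicate 5 as well. Wdr1, the actin-interacting protein that promotes severing by cofilin, was 11.39 in KO replicate 1 and 12.18, 12.09 and 12.09 in the other KO arrays, against 12.09, 12.30, 12.09, 12.16 and 11.87 in WT replicates 1 to 5. Its difference was -0.16 (SE 0.17) and turned to 0.018 without KO replicate 1, but was -0.04 (SE 0.06) without WT replicate 5 as well.

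Pfn1, the profilin that recharges actin monomers with ATP, had nearly equal signals in the KO arrays. It was 13.64, 13.65, 13.62 and 13.63 in KO replicates 1 to 4 and 13.67, 13.62, 13.40, 13.51 and 13.60 in WT replicates 1 to 5. All KO arrays lay inside the WT range, and WT replicate 3 was the lowest. Means were 13.63 ± 0.013 (SD, n = 4) and 13.56 ± 0.11 (SD, n = 5), a difference of 0.075 (SE 0.056), and -0.0038 with quantile normalization.

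**Figure D2:**
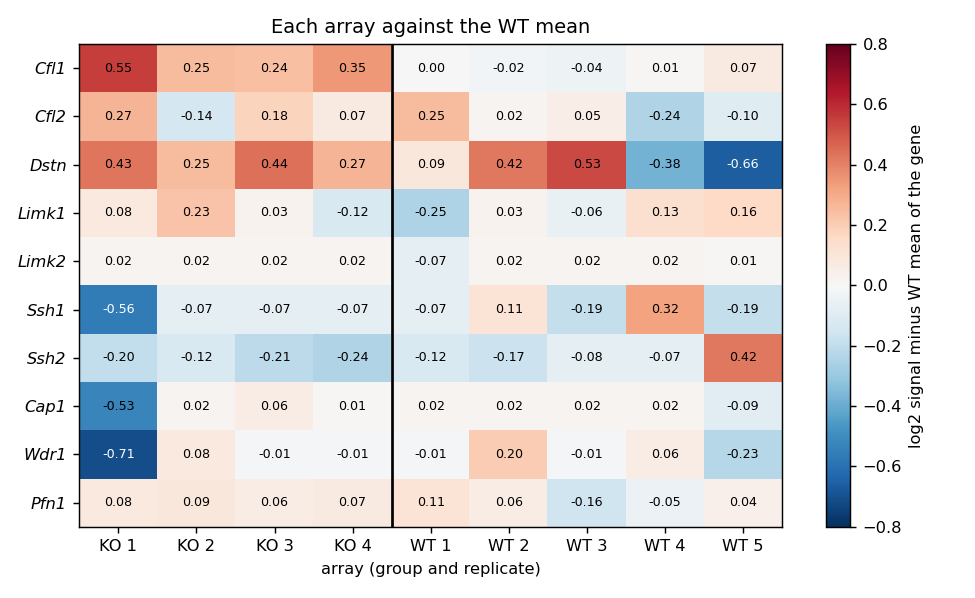
Log2 signal of each gene (rows) in each array (columns, KO left and WT right of the line) minus the WT mean of that gene, with the value in each cell. Cfl1 is positive in all 4 KO arrays, and KO replicate 1 combines the highest Cfl1 (0.55) with the lowest Ssh1 (-0.56), Cap1 (-0.53) and Wdr1 (-0.71).

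As a group the 10 genes did not move one way. Means were higher in KO for 6 of them and lower for 4, with a median difference of 0.036 and a range from -0.19 to 0.35. Without KO replicate 1 the KO mean was higher for 8 of the 10, and without WT replicate 5 as well for 7. Higher KO means were found in 64.2% of all genes and in 54.4% of those above background, with median differences of 0.034 and 0.018. Past an adjusted p of 0.05 in limma, 0.00332% of 30142 genes were called, which was Abi1 alone, and 0 of the 10. At an unadjusted p under 0.05 there was 1 of the 10, Cfl1, by which the set was chosen, against 3.82% of all genes with higher and 1.19% with lower KO values. The groups did not overlap for 1 of the 10, again Cfl1, with KO higher. Over all genes that held for 0.856%, with KO higher in 0.68%, and among genes above background KO was higher without overlap in 0.936%. Nothing is read from these shares, since the same comparison chose the set.

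**Figure D3:**
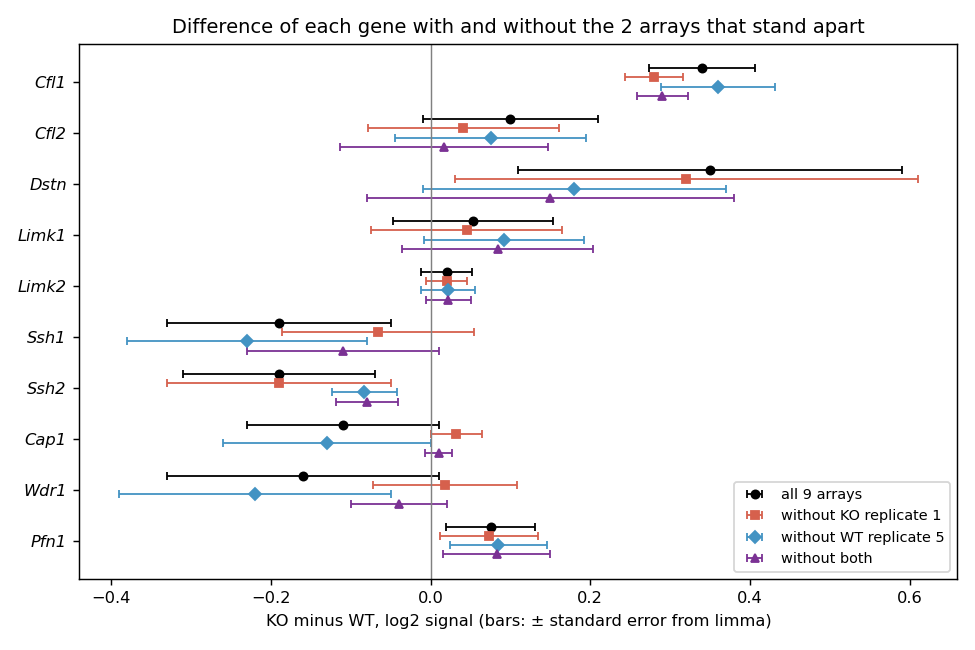
Difference in log2 signal, KO minus WT (horizontal axis), for each gene with all 9 arrays (black circles), without KO replicate 1 (red squares), without WT replicate 5 (blue diamonds) and without both (purple triangles), with bars of ± 1 standard error from limma. Cfl1 stays between 0.28 and 0.36, while Cap1 and Wdr1 lie at 0.032 and 0.018 without KO replicate 1.

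Deviations from the group means were then compared between members over the 9 arrays, as a description, since arrays share their RNA quality and cell content across genes. Cap1 and Wdr1 deviated together (Pearson r = 0.94, Spearman rho = 0.81), and Cfl1 deviated against Cap1 (r = -0.94, rho = -0.83) and against Wdr1 (r = -0.91, rho = -0.70). These relations leaned on the arrays that stood apart. Without KO replicate 1 and WT replicate 5, Cap1 and Wdr1 gave r = -0.13, Cfl1 and Cap1 -0.65, and Cfl1 and Wdr1 -0.15. Cap1 was 11.96 in all WT arrays that were left, so its r values there rest on the remaining KO arrays. The kinases and phosphatases of cofilin did not pair off in a common pattern: r was 0.04 between Cfl1 and Limk1, -0.65 between Cfl1 and Ssh1 and 0.22 between Cfl1 and Ssh2. Without KO replicate 1 and WT replicate 5 these were -0.43, 0.30 and -0.39, so the signs of all 3 turned.

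The 5 genes most like Cfl1 among 16022 others above background, by r of these deviations, were the defensin gene Defb33 (0.983), the small nucleolar RNA Gm23175 (0.980), the secretoglobin gene Scgb1b3 (0.976), the long noncoding RNA Gm20548 (0.976) and the pseudogene Gm13487 (0.975). All 5 had their highest KO signal in KO replicate 1, such as 7.39 for Defb33, whose next highest KO array was at 6.77. Without that array 0 of the 5 stayed among the 5 most like Cfl1, though their r with Cfl1 was still 0.889 to 0.919.

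Of the other genes of this pathway, 74 were listed by role with earlier results of these data known, and 67 of them had a probeset of their own. Past an adjusted p of 0.05 in limma, 0 rose and 0 fell. KO means were higher in 39 and lower in 28 of the 67, and were higher in 64.2% of all genes and 54.4% of those above background. The median difference was 0.036, against 0.034 over all genes. At an unadjusted p under 0.05 there was 1 of the 67, Tmsb4x, with a higher KO mean, against 3.82% of all genes with higher and 1.19% with lower KO values. Pak1, Rock2, Twf1, Add1, Actg1, Actc1 and Myh9 had no such probeset and were not analysed here.

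Among 18 measured regulators upstream of cofilin, 10 had higher (64.2% of all genes did) and 8 lower KO means, with differences between -0.15 and 0.11. The testis kinases Tesk1 and Tesk2, which also phosphorylate cofilin, differed by -0.052 (SE 0.057) and 0.021 (SE 0.064). Ssh3, the third slingshot, differed by 0.10 (SE 0.13), and Pdxp, which encodes the cofilin phosphatase chronophin, by 0.080 (SE 0.11), with 0.17 for both without KO replicate 1 and 0.005 for Pdxp without WT replicate 5. For Pak2 and Rock1, kinases that activate LIM kinases, the differences were 0.079 and -0.011. Rac2, the Rac GTPase of blood cells, differed by 0.028 (0.16 without KO replicate 1, -0.013 without WT replicate 5) and turned negative with quantile normalization. Cttn, also on this list, differed by 0.038 (SE 0.28), by 0.26 without KO replicate 1 and by -0.12 without WT replicate 5. The signs of Tesk2 and Rock1 also turned without WT replicate 5, to -0.0025 and 0.028. The limma adjusted p of these genes ran from 0.786 to 0.973.

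Monomer-binding proteins had higher KO means in 6 of 7 measured genes, against 64.2% of all genes. Of the 7, 5 lay above background, and the median difference was 0.092, against 0.034 over all genes. Tmsb4x, the gene of thymosin beta 4, which holds actin monomers in reserve, was 9.01, 9.02, 9.01 and 9.12 in KO replicates 1 to 4 and 8.94, 8.77, 8.94, 8.84 and 8.77 in WT replicates 1 to 5. Its groups did not overlap, with all KO arrays above the highest WT arrays. It was the 1 gene of the 67 for which this held, against 0.856% of all genes in either direction and 0.68% with KO higher. The difference of 0.19 (SE 0.052) did not pass (limma adjusted p = 0.786) and ran from 0.14 to 0.23 over the alternatives. The related Tmsb10 differed by 0.21 (SE 0.15) and by 0.049 without KO replicate 1, its highest array at 9.59. Twf2, a twinfilin that binds monomers and filament ends, differed by 0.27 (SE 0.13), and by 0.41 without KO replicate 1. The limma adjusted p of both was 0.786. Pfn2, another profilin, had a mean below background, and Cap2 had means of 5.86 and 5.77.

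Severing and capping proteins had higher KO means in 10 of 16 measured genes, against 64.2% of all genes, with a median difference of 0.047. Gsn, the gene of gelsolin, was 5.98 in KO and 5.94 in WT, close to background. Capg, a gelsolin relative that caps filaments, differed by 0.070 (SE 0.086). The capping protein subunits Capza1, Capza2 and Capzb differed by 0.081, -0.015 and -0.11. Without KO replicate 1 and WT replicate 5 these were 0.069, 0.072 and 0.017, and Capza1 was 0.005 without WT replicate 5 alone. The limma adjusted p of these 5 genes ran from 0.786 to 0.958.

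Coronins, which bind filaments and work beside cofilin, and proteins with the ADF homology fold that cofilin has were listed together. KO means were higher in 5 of these 11 genes, against 64.2% of all genes. Coro1a, the coronin of blood cells, was 10.44 in KO replicate 1 and lay between 10.90 and 11.44 in the remaining KO arrays, close to the WT range of 10.89 to 11.37. Its difference of -0.15 (SE 0.19) became 0.028 without KO replicate 1, the same turn as in Cap1 and Wdr1. Coro1c did likewise, from -0.15 to 0.021, and Coro1b differed by 0.16 (SE 0.15) and by 0.29 without that array. Cotl1, which shares the ADF homology fold and binds filaments, differed by 0.21 (SE 0.17), or 0.38 without KO replicate 1, and Gmfg, a glia maturation factor of blood cells that takes branches apart, by 0.17 (SE 0.081), or 0.10 without it. The limma adjusted p of these 5 genes ran from 0.786 to 0.811.

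Actins and serum response factor complete the pathway, since free actin monomers hold back the coactivators of this factor. Actb, the gene of beta-actin, had a KO mean of 16.44 ± 0.099 (SD, n = 4) and a WT mean of 16.45 ± 0.12 (SD, n = 5), a difference of -0.014, whose 95% confidence interval ran from -0.18 to 0.16. Srf differed by 0.075 (SE 0.21), and by 0.27 without KO replicate 1 and 0.022 without WT replicate 5. Its coactivators Mrtfa and Mrtfb had lower KO means, by -0.24 (SE 0.12) and -0.29 (SE 0.13), and their differences were -0.071 and -0.15 without KO replicate 1 and WT replicate 5. Among genes under their control, Vcl differed by 0.15, Tpm4 by 0.30 and Flna by -0.16, with signs that turned for 2 of them. Flna differed by 0.079 without KO replicate 1, and Vcl by -0.11 without WT replicate 5 and 0.31 without KO replicate 1. Tpm4 differed by 0.19 without KO replicate 1. None of these 7 passed, at limma adjusted p of 0.786 to 0.957.

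**Figure D4:**
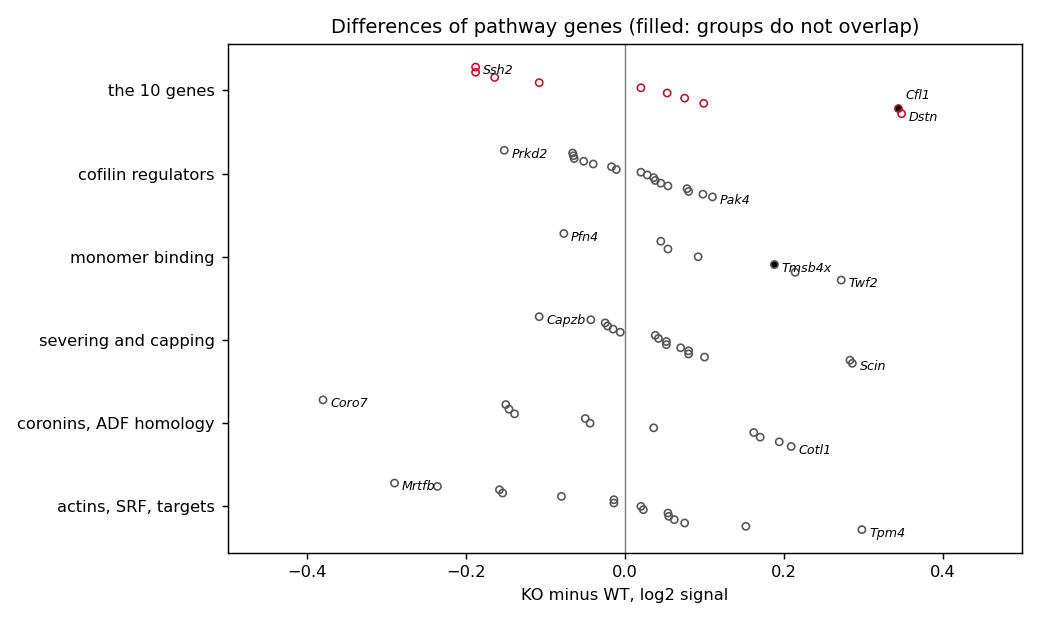
Difference in log2 signal, KO minus WT (horizontal axis), of the 10 genes (red outlines) and of 67 other pathway genes by role (grey outlines), with filled points where the groups do not overlap and names at the ends of each row. Filled points are Cfl1 and Tmsb4x, and the differences run from -0.38 to 0.35.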

How the data were processed

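Bone marrow LSK cells of 4 KO and 5 WT mice were hybridised to 1 Affymetrix whole-transcript array each. The authors deposited 1 table of 72688 probesets by 9 arrays, used here as log2 signals. How background was corrected, how arrays were normalized and which log base was used is not given in the sources used here. Partek 6.6 is named in the submitters' processing notes, with no role. After 6732 control probesets were left out, 30604 probesets with exactly 1 symbol, updated through Entrez identifiers to the RefSeq annotation of GRCm38.p6, gave 30142 genes, each by its brightest probeset. The genotypes were compared by limma (version 3.58.1, R 4.3.3) with eBayes left without a trend and Benjamini-Hochberg adjustment over all genes at a threshold of 0.05, and the script was tested on simulated data. The labels name no batch. Replicate numbers 1 to 4 occur in both groups; same-numbered arrays deviated with correlations of -0.18 to 0.27, so the numbers were not taken as pairs.

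Members and lists were chosen with earlier results of these data known. The genes named are the 10 members, Abi1, 35 pathway genes fixed by role where measured, any other list gene past the threshold, the list gene of smallest unadjusted p per direction if under 0.05, and the 5 genes most like Cfl1; marker genes are named as examples. Summed marker signals are log2 of the sum of linear signals. Promoter windows came from RefSeq and matched all 10 members. Protein sequences were not used here. Alternatives were quantile normalization, centring, dim genes left out, the mean of all probesets, eBayes with trend, the replicate number as a block, and leaving out arrays.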

Additional observations from a re-analysis of the deposited data

Results flagged for a closer look

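In 80 groups of values, those of the 10 members and of 30 named pathway genes in KO and in WT, 21 single arrays lay far from the rest of their group by Dixon's criterion, where chance flags about 1 in 20 groups. KO replicate 1 gave 8 of them and WT replicate 5 gave 6. In KO replicate 1, Ssh1 was 7.70 (others 8.19), Cap1 11.41 (others 11.95 to 12.00), Wdr1 11.39 (others 12.09 to 12.18), Capzb 10.44, Coro1c 8.40 and Flna 11.04, all low, and Pfn2 5.39 and Tmsb10 9.59, both high. In WT replicate 5, Cap1 was 11.85 (others 11.96), Cap2 5.34, Pdxp 6.87 and Capza1 12.38, all low, and Ssh2 8.98 (others 8.39 to 8.49) and Capzb 10.96, both high. Of the members, Limk2 in WT replicate 1 was also apart, at 6.93 against 7.01 to 7.02. The other 6 were Tmsb4x at 9.12, Tesk1 at 8.17 and Capg at 7.97 in KO replicate 4, Gsn at 6.02 in KO replicate 2, Capza2 at 9.99 in WT replicate 1 and Tpm4 at 7.96 in WT replicate 2. For Limk2, Tesk1, Gsn and Capza2 the other arrays were equal or nearly equal to 2 decimals, so a small step was enough. The other arrays were also equal for Ssh1 in KO replicate 1 (8.19) and for Cap1 (11.96) and Capzb (10.77) in WT replicate 5. Any step would have been flagged there, and the chance share of about 1 in 20 does not hold for such tied values.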

How the results depend on the processing

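Under the 16 alternatives run, Abi1 stayed the 1 gene past the threshold in each, and 0 genes of the 5 pathway lists passed in any. Dim genes left out and eBayes with trend do not change a difference, nor does the mean of all probesets for members, with 1 probeset each. The replicate block gave the members the same differences as leaving out WT replicate 5, which is alone in its block. The Cfl1 difference kept its sign, from 0.28 to 0.38. Leaving out arrays could not turn that sign, since the Cfl1 groups do not overlap. The signs of Cfl2, Dstn, Ssh1 and Ssh2 also held in all 16, Limk1 and Cap1 in 14, and Limk2, Wdr1 and Pfn1 in 15. The median difference of the members was -0.010 when arrays were centred on their medians and ran from -0.0037 to 0.049 when single arrays were left out. Members whose groups did not overlap numbered 1 to 2 when single arrays were left out, the second being Ssh2 without KO replicate 2. With the replicate number as a block, Cfl1 differed by 0.36 and 1 gene passed, and no call changed. Of the 5 genes most like Cfl1, 0 were shared under quantile normalization, centring, and without KO replicate 1 and WT replicate 5; 0 to 3 were shared when single arrays were left out. The cause of these shifts was not tested.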
